A study of Danio rerio with 32 samples.

Results

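The genes described here encode the folding machinery of the endoplasmic reticulum (ER) and its stress sensors, in zebrafish larvae that carried mutations of pllp and were raised on low or high dietary protein. The set was defined by symbol, and it was chosen with earlier results of these data known. Of 48 symbols listed, 46 were found among the 32520 genes of the count tables. The symbols dnajb9a and dnajb9b were not matched and are not analysed here. The 46 members fall into 4 role groups, with 15 lumenal chaperones, 14 disulfide and proline isomerases, 4 sensors or transcription factors and 13 genes of quality control and degradation. All 46 passed the filter on low counts in experiment 1. In experiment 2, 45 passed, and EDEM3, a mannosidase-like protein of glycoprotein disposal, stayed at 0.0824 to 0.740 CPM (the count scaled by library size) and was not tested.

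Proteins bound for secretion, the cell surface or lysosomes are folded in the ER, where chaperones hold unfinished chains, isomerases form disulfide bonds and rotate proline bonds, and lectins check the glycans before export. When unfolded protein accumulates, the sensors atf6, ern1 (IRE1) and EIF2AK3 (PERK) start the unfolded protein response, which raises chaperone transcription, partly through XBP1. In fish larvae this machinery is used heavily by secretory tissues such as exocrine pancreas, liver, gut and collagen-making skeleton and skin. The roles given below are largely known from mammals and yeast. Gene counts do not measure the cleavage of atf6, the splicing of XBP1 or the phosphorylation of EIF2AK3.

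The study profiled RNA of whole larvae at 20 days after fertilisation (dpf). Pllp encodes plasmolipin, a membrane protein of the endosomal system of the gut epithelium. Experiment 1 held 6 groups of 3 libraries each: pllp pd1245 on a low protein (LP) diet, pllp pd1245 on a high protein (HP) diet, pllp pd1116 on LP, pllp pd1116 on HP, EK on LP and EK on HP. The submitters describe pd1245 in experiment 1 as the new mutation, with poor survival when nutrition is restricted, and pd1116 as the old mutation, whose survival defect has adapted. Experiment 2 held an adapted pllp pd1245 line on LP (4 libraries) and HP (3 libraries), and EK on LP (4 libraries) and HP (3 libraries). EK is the strain that served as the reference in both. The labels do not give the number of larvae in a library, nor the kind of lesion in either allele. Each experiment was analysed on its own, because the library chemistry and the counting differed.

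Libraries held 19838912 to 29147958 gene counts in experiment 1 and 3713048 to 12929536 in experiment 2, where the shallowest was EK HP replicate 2. Pllp itself was at 3.39 to 7.02 CPM in pd1245 LP, 9.22 to 10.2 in pd1245 HP, 6.49 to 8.03 in pd1116 LP, 6.46 to 7.03 in pd1116 HP, 12.8 to 17.1 in EK LP and 11.3 to 12.5 in EK HP. Mutants had less pllp than EK by edgeR's quasi-likelihood test except pd1245 on HP (log2 difference -0.32, adjusted p = 0.343). In experiment 2 pllp was at 5.41 to 7.72 CPM in adapted pd1245 libraries and 24.6 to 38.3 CPM in EK libraries. The library labelled pd1245 LP replicate 3 stood apart: ribosomal protein genes took 14.1% of its counts, against 6.70 to 8.86% in the other 17 libraries of experiment 1. It was the lowest of its group for 27 of the 46 members (58.7%) and for 41.4% of all genes tested. It was the highest of its group for 13 members (28.3%) and for 45.0% of all genes tested. The counts of called members in comparisons with this library are given with and without it.

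On the low protein diet, larvae of the new mutation pd1245 had less RNA of many ER folding genes than pd1245 larvae on high protein. Of 46 members, 22 were called lower and 0 higher, where a call is an adjusted p under 0.05 over all genes tested. Over all genes in this comparison 19.1% were called, 9.78% lower and 9.33% higher. The median log2 difference of the members was -0.30, against 0.01 for all genes, and 38 of 46 lay below 0. In 24 members every LP library was below every HP library, a separation that 16% of all genes showed. In RNA from whole larvae, fewer cells of a type and less RNA per cell cannot be told apart.

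**Figure D1:**
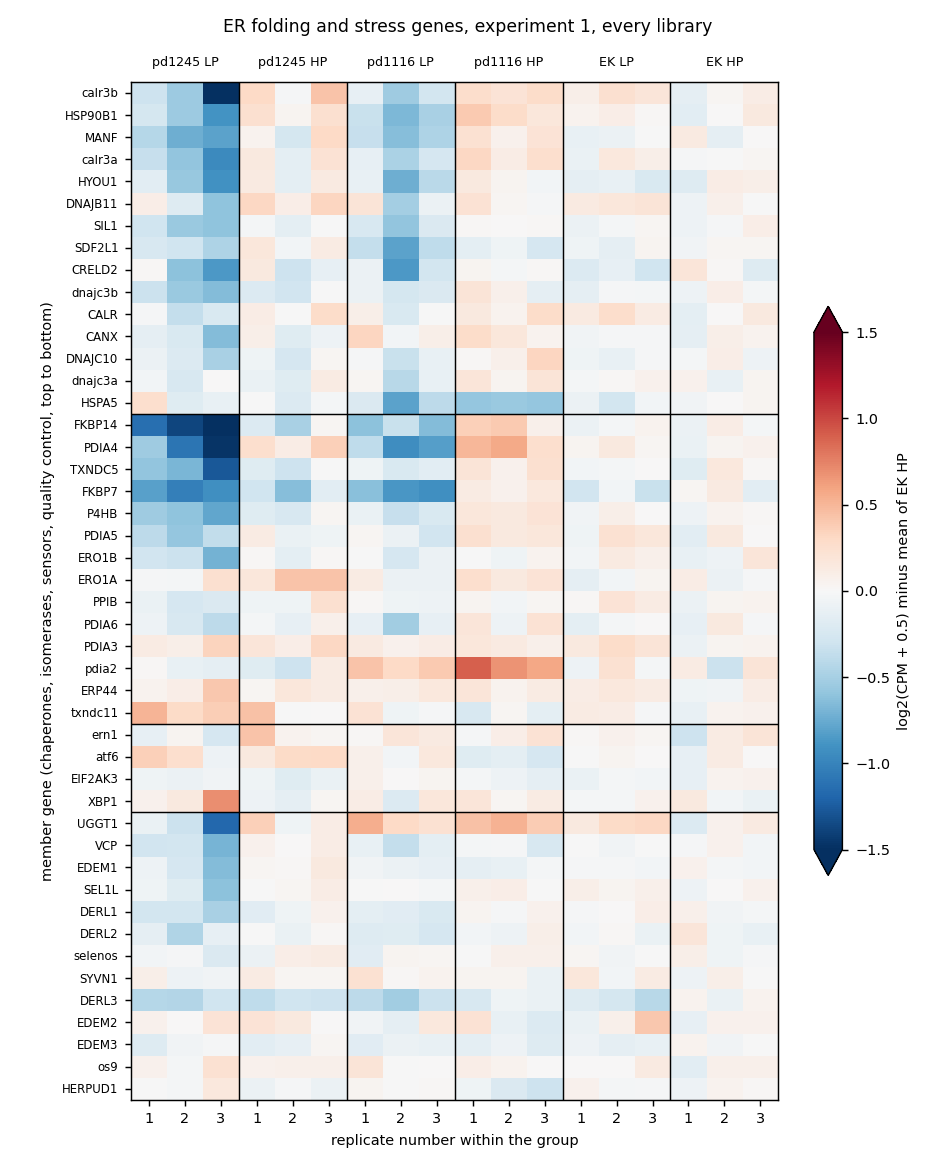
Heat map of the 46 members (rows, by role group and sorted by the diet difference in pd1245) in the 18 libraries of experiment 1 (columns, pd1245 LP and HP, pd1116 LP and HP, then EK LP and HP). Colour is log2(CPM + 0.5) minus the mean of the 3 EK HP libraries. The median member lay at -0.10, -0.25 and -0.43 in the pd1245 LP libraries, against 0.03, -0.08 and 0.07 in the pd1245 HP libraries.

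Among the lumenal chaperones, 10 of 15 were called lower in pd1245 LP than in pd1245 HP larvae, and their median log2 difference was -0.43. HSP90B1 (GRP94), the ER form of the Hsp90 chaperones, had 156, 128 and 100.4 CPM in pd1245 LP libraries, against 222, 194 and 222 CPM in pd1245 HP libraries. The groups did not overlap, and HSP90B1 fell by 0.73 ± 0.13 on the log2 scale (SE, n = 3 each; edgeR adjusted p = 0.00234). MANF, a small secreted and ER-resident protein that binds HSPA5, had 11.3, 9.03 and 8.58 CPM on LP, against 15.9, 12.7 and 19.1 CPM on HP. All its LP values lay below its HP values (log2 difference -0.72 ± 0.14, edgeR adjusted p = 0.00292). The calreticulins are lectin chaperones that hold newly glycosylated chains. For calr3a the values were 77.6, 65.4 and 50.8 CPM on LP, against 109.5, 89.4 and 115 CPM on HP. It fell by 0.69 ± 0.13 (edgeR adjusted p = 0.00300), with no overlap. For calr3b the LP values of 85.6, 72.4 and 28.4 CPM stood against 131, 105 and 144 CPM on HP. Replicate 3 was far below its group for calr3b, whose log2 difference was -1.02 ± 0.24 (edgeR adjusted p = 0.00900) with that library and -0.68 ± 0.13 (edgeR adjusted p = 0.00340) without it. Reads of calr3a and calr3b could be split by the counting, so their separate values are uncertain, as are those of the pairs dnajc3a and dnajc3b, ERO1A and ERO1B, and DERL2 and DERL3.

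Other called chaperones and cofactors of pd1245 larvae were HYOU1 (log2 difference -0.56, adjusted p = 0.0228 by edgeR), a large Hsp70-like protein that exchanges nucleotide on HSPA5, and SIL1 (-0.43), which does the same. The J-proteins DNAJB11 (-0.46) and dnajc3b (-0.35), which bring unfolded chains to HSPA5, were also lower, as were SDF2L1 (-0.43), a partner of DNAJB11, and CALR (-0.33). HSPA5 (BiP), the Hsp70 chaperone that these cofactors serve and a standard readout of ER stress, did not follow them. It had 189, 139.7 and 147 CPM in pd1245 LP libraries, against 158, 138 and 155 CPM in pd1245 HP libraries. These ranges overlapped, with a log2 difference of 0.08 ± 0.13 (edgeR adjusted p = 0.714). CANX, the membrane-bound relative of calreticulin, was at 275, 257 and 193 CPM on LP and 322, 267 and 286 CPM on HP and was not called (-0.27, adjusted p = 0.135 by edgeR).

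Of the disulfide and proline isomerases, 7 of 14 were called lower in pd1245 LP larvae, and this group held the largest changes of all 46 members in this comparison. FKBP14, a proline isomerase that acts on collagen, had 5.13, 4.25 and 2.48 CPM on LP, against 10.1, 8.29 and 12.1 CPM on HP. Every LP library was below every HP library, and FKBP14 fell by 1.34 ± 0.19 on the log2 scale (edgeR adjusted p = 0.000726). PDIA4, a multi-domain protein disulfide isomerase, had 36.8, 24.7 and 19.0 CPM on LP, against 63.7, 57.8 and 68.9 CPM on HP. Its difference was -1.24 ± 0.18 (edgeR adjusted p = 0.000746), again without overlap. P4HB, the classical disulfide isomerase and a subunit of collagen prolyl hydroxylase, had 251, 238 and 212 CPM on LP, against 319.8, 308 and 370.4 CPM on HP. It was lower by a smaller factor in every LP library (-0.51 ± 0.10, edgeR adjusted p = 0.00296). TXNDC5, a thioredoxin-domain isomerase, changed by -0.66 ± 0.13 (edgeR adjusted p = 0.00413) and FKBP7, a proline isomerase related to FKBP14, by -0.60 ± 0.14 (edgeR adjusted p = 0.00722). PDIA5 (-0.45) and the oxidase ERO1B (-0.40), which passes oxidising power to the isomerases, completed the called members. PDIA3, the partner of calreticulin and calnexin in glycoprotein folding, was at 288, 281 and 332 CPM on LP and 300.1, 282 and 328 CPM on HP, a log2 difference of -0.01.

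**Figure D2:**
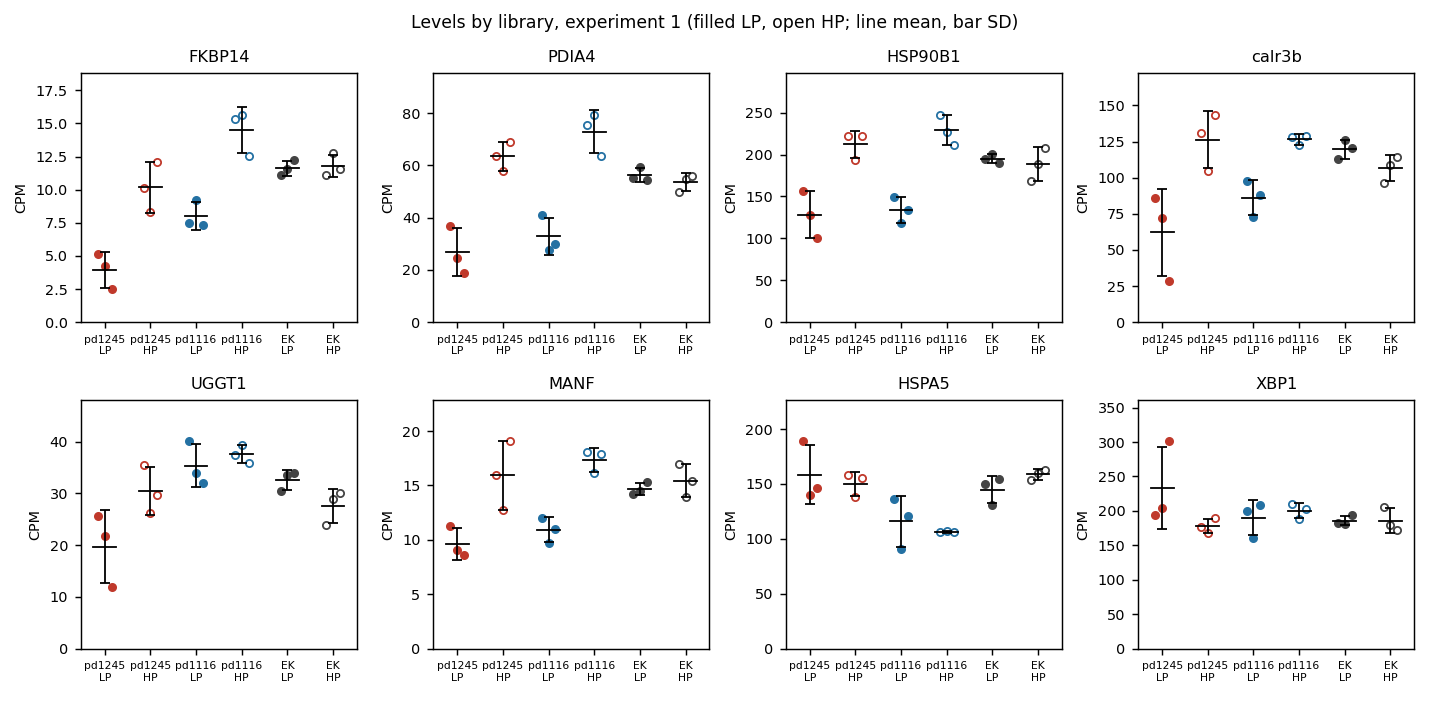
CPM of 8 members in each library of experiment 1 (filled points LP, open points HP; line, mean; bar, SD; n = 3 a group), with pd1245, pd1116 and EK from left to right. PDIA4 lay at 19.0 to 36.8 CPM in pd1245 LP and 27.7 to 41.0 CPM in pd1116 LP larvae, under all HP and EK values, while HSPA5 of pd1245 overlapped between diets.

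In the edgeR fit of all libraries of experiment 1, with TMM scaling, filterByExpr and no replicate block, none of the 4 sensors and transcription factors was called between the diets of pd1245. XBP1, the transcription factor whose mRNA is spliced by IRE1, came nearest: it had 194, 204 and 302 CPM on LP, against 176, 168 and 189 CPM on HP. All LP values were the higher ones, but the difference of 0.39 ± 0.14 had an adjusted p of 0.0542 by edgeR. It was 0.16 (adjusted p = 0.323, edgeR) without LP replicate 3, which had by far the highest value. XBP1 was called higher by DESeq2 (adjusted p = 0.0338), and by edgeR with the strict filter (adjusted p = 0.0479), with the replicate block (adjusted p = 0.0482), without LP replicate 1 (0.50, adjusted p = 0.0154) and without LP replicate 2 (0.47, adjusted p = 0.0345). The nuclease and kinase ern1 had 14.8, 16.6 and 13.4 CPM on LP and 21.9, 16.7 and 16.5 CPM on HP (-0.29 ± 0.13, edgeR adjusted p = 0.129). The log2 difference was -0.06 ± 0.10 for atf6 (edgeR adjusted p = 0.729) and 0.04 ± 0.08 for EIF2AK3 (edgeR adjusted p = 0.731), and both overlapped between diets.

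In quality control and degradation 5 of 13 members were called lower in pd1245 LP larvae, with a median of -0.14 over the group. UGGT1, the glucosyltransferase that returns misfolded glycoproteins to the calnexin cycle, had 25.6, 21.7 and 11.8 CPM on LP, against 35.4, 26.2 and 29.8 CPM on HP. It fell by 0.62 ± 0.18 (edgeR adjusted p = 0.0269), with replicate 3 the lowest and no overlap. VCP, the cytosolic ATPase that pulls substrates out of the ER membrane, had 203, 205 and 153 CPM on LP, against 261, 249 and 269 CPM on HP. VCP was lower in all LP libraries (-0.47 ± 0.11, edgeR adjusted p = 0.00772). The other called members were the mannosidase-like EDEM1 (-0.37), DERL1 (-0.29) of the retrotranslocation channel and SEL1L (-0.32), the scaffold of the SYVN1 ubiquitin ligase. SYVN1 itself (-0.08), os9 (0.02), HERPUD1 (0.11) and EDEM3 (-0.01) were not called.

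These calls took their spread from all 6 groups of experiment 1. With the pd1245 libraries alone the fit called 0 genes of any kind, and the smallest adjusted p of a member was 0.0990 by edgeR. There 21 members had an unadjusted p under 0.05, and the share of all genes at that threshold is not given here. In that fit without LP replicate 3 as well, 8 members and 4.26% of all genes were called. In the fit of all groups the members called were 13 without LP replicate 3 and 9 without HP replicate 3. Without LP replicate 3 all 13 were lower, the members' median was -0.22, 39 of 46 lay below 0, and 6.57% of all genes were called lower and 5.08% higher. The 9 members no longer called then were CALR, dnajc3b, DNAJB11, HYOU1 (-0.40, edgeR adjusted p = 0.0858), ERO1B, UGGT1 (-0.37, edgeR adjusted p = 0.0652), EDEM1, DERL1 and SEL1L.

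In larvae of the old mutation pd1116 the median member was likewise lower on LP than on HP. Between the diets 7 of 46 members were called lower and 0 higher, where 6.79% of all genes were called, 4.04% lower and 2.76% higher. The median of the members was -0.21 against 0.01 for all genes, and 35 of 46 lay below 0. In 22 members the LP libraries were all below the HP libraries, as for 17.6% of all genes. All 7 were among the 22 of pd1245, or 31.8% of that list. The pd1116 and pd1245 diet comparisons have no libraries in common, but both took their spread from all 6 groups. The matching overlap over all genes is not given here, so this overlap cannot be read as particular to the members. Chaperones gave 3 of 15 calls, isomerases 4 of 14, quality control 0 of 13 and the sensors 0 of 4.

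FKBP7 had 8.67, 7.18 and 6.98 CPM in pd1116 LP libraries, against 14.8, 14.3 and 15.2 CPM in pd1116 HP libraries. The difference of -0.96 ± 0.13 (edgeR adjusted p = 0.000359) came with a wide gap between the groups. PDIA4 had 41.0, 27.7 and 30.0 CPM on LP, against 75.6, 79.4 and 63.7 CPM on HP. It fell by 1.15 ± 0.18 (edgeR adjusted p = 0.000712). HSP90B1 had 149, 118 and 133 CPM on LP, against 247, 227 and 212 CPM on HP. It fell by 0.78 ± 0.13 (edgeR adjusted p = 0.00191), and neither gene overlapped between diets. FKBP14 (-0.86, adjusted p = 0.00688), MANF (-0.67, adjusted p = 0.00717), P4HB (-0.40, adjusted p = 0.0214) and calr3a (-0.51, adjusted p = 0.0275) were the other calls of edgeR. HSPA5 was at 137, 90.5 and 121 CPM on LP and 106, 107 and 106 CPM on HP, so that the HP values lay inside the LP range (0.12 ± 0.13, edgeR adjusted p = 0.629). UGGT1, called in pd1245, was at 40.1, 33.8 and 32.1 CPM on LP and 37.3, 39.4 and 35.9 CPM on HP in pd1116 (-0.09). The sensor atf6 had 86.4, 79.5 and 91.4 CPM on LP, against 72.5, 73.9 and 68.5 CPM on HP, all LP values the higher, but was not called (0.26 ± 0.10, edgeR adjusted p = 0.131). It was called higher with the pd1116 libraries alone (0.25, edgeR adjusted p = 0.0402) and without pd1245 LP replicate 3 (0.26, edgeR adjusted p = 0.0267). For XBP1 the difference was -0.08 (adjusted p = 0.797), for ern1 0.01 (adjusted p = 0.980) and for EIF2AK3 0.12 (adjusted p = 0.357), by edgeR. With the pd1116 libraries alone 16 members were called, 15 lower and atf6 higher. The share of all genes called in that fit is not given here, so the count cannot be read as particular to the members. The fit of all groups without pd1245 LP replicate 3, which is not in this comparison but enters the shared spread, called 15 lower and 2 higher, atf6 and HERPUD1 (0.22, edgeR adjusted p = 0.0477), where 7.76% of all genes were called lower and 7.48% higher. For pd1245 the fit of its libraries alone called 0 members and 0 genes of any kind. Without LP replicate 3 the fit of all groups called 13 members for pd1245, where 6.57% of all genes were called lower and 5.08% higher. These counts do not rank the alleles, because the share of all genes called differed as well.

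In EK larvae of experiment 1 no member was called between the diets by edgeR or DESeq2, and 2 had an unadjusted p under 0.05. Few genes of any kind were called there, 0.154% by edgeR. The members' median was 0.01, with 21 of 46 below 0, 2 had all LP libraries below all HP libraries (8.85% of all genes) and 3 had them all above (8.45% of all genes). PDIA4 was at 55.1, 59.3 and 54.5 CPM in EK LP and 49.8, 55.0 and 56.1 CPM in EK HP libraries. HSP90B1 was at 195, 201 and 189.6 CPM in EK LP and 168, 189 and 208 CPM in EK HP libraries. Both genes overlapped between the diets. The smallest adjusted p was that of DERL3, a derlin of the degradation channel (-0.29, adjusted p = 0.327 by edgeR).

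The difference between the responses was tested as an interaction. Against the diet response of EK, that of pd1245 was more negative in 7 members and more positive in 0, where 5.7% of all genes were called, 3.4% lower and 2.3% higher. The members were PDIA4 (interaction -1.31 ± 0.25, adjusted p = 0.00817), FKBP14 (-1.32 ± 0.25, 0.00938), HSP90B1 (-0.78 ± 0.19, 0.0240), calr3a (-0.75 ± 0.19, 0.0285), P4HB (-0.52 ± 0.14, 0.0347), PDIA5 (-0.56 ± 0.16, 0.0437) and calr3b (-1.19 ± 0.34, 0.0464), by edgeR on the log2 scale. The number was 2 with only these 4 groups in the fit and 2 to 18 when single libraries were left out. It was 2 without EK HP replicate 1, EK LP replicate 2 or pd1245 HP replicate 3. It was 3 without EK HP replicate 2 or EK LP replicate 3. Leaving out EK HP replicate 3 or pd1245 HP replicate 1 gave 4. It was 11 without pd1245 HP replicate 2 and 18 without pd1245 LP replicate 1. Without pd1245 LP replicate 3 it was 9, all more negative, where 3.85% of all genes were called lower and 2.11% higher. For the other fits the share of all genes called is not given here, so their counts cannot be read as particular to the members. Between the diet responses of pd1116 and pd1245 no member was called by edgeR or DESeq2, and 4 had an unadjusted p under 0.05 (EDEM1, XBP1, VCP and atf6). In this last interaction 0.616% of all genes were called. The response of pd1116 was not tested against that of EK.

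**Figure D3:**
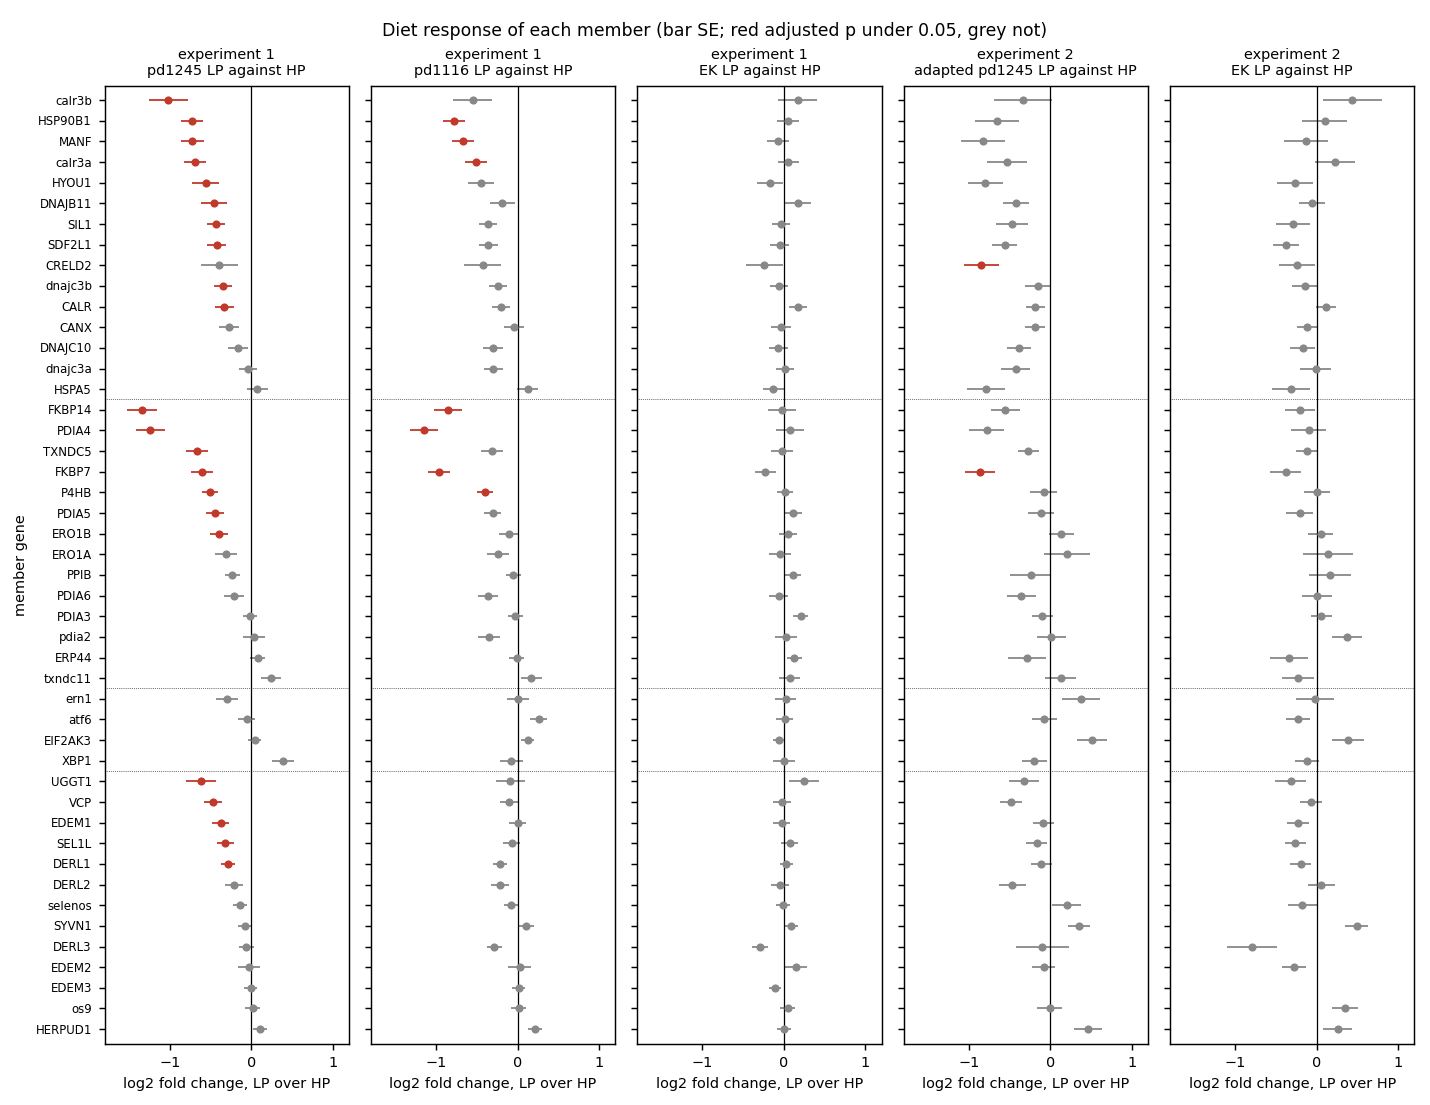
Log2 difference LP against HP (point) with its SE (bar) for each member, by role group, in pd1245, pd1116 and EK of experiment 1 and in adapted pd1245 and EK of experiment 2; red marks an edgeR adjusted p under 0.05. The 22 red points of pd1245 and the 7 of pd1116 all lie left of 0, the adapted line has 2, and EK has none in either experiment.

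Set against EK on the same diet, pd1245 had 20 calls among the members on LP and 1 on HP. On LP, 20 of 46 members were called lower in pd1245 than in EK and 0 higher, where 31.8% of all genes were called, 15.8% lower and 16% higher. The median was -0.28, and 24 members had every pd1245 library below every EK library (22% of all genes). By role 7 of 15 chaperones, 8 of 14 isomerases, 0 of 4 sensors and 5 of 13 quality control genes were called. FKBP14 led with 5.13, 4.25 and 2.48 CPM in pd1245 LP, against 11.1, 11.5 and 12.2 CPM in EK LP libraries (-1.53 ± 0.19, edgeR adjusted p = 3.59e-05). P4HB had 251, 238 and 212 CPM in pd1245 LP, against 348, 387 and 364 CPM in EK LP libraries (-0.65 ± 0.10, edgeR adjusted p = 0.000157). Neither overlapped between the genotypes. The next members by p were PDIA4 (-1.06), TXNDC5 (-0.80), FKBP7 (-0.74), PDIA5 (-0.57), calr3a (-0.67) and HSP90B1 (-0.60), with edgeR adjusted p of 0.000322 to 0.00247. HSPA5 had 189, 139.7 and 147 CPM in pd1245 LP and 149.5, 131 and 154 CPM in EK LP libraries, overlapping (0.13). The diet comparison in pd1245 and this one use the same 3 pd1245 LP libraries, so their calls are not independent. A fit of only these 2 groups called 13, and the share of all genes called in it is not given here. Without pd1245 LP replicate 3, the fit of all groups called 18 lower and 1 higher, atf6 (0.29, edgeR adjusted p = 0.0150), where 14.5% of all genes were called lower and 12.9% higher.

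Markers of other cell types differed in the same comparison of pd1245 with EK on LP, where 15.8% of all genes were called lower and 16% higher. Of the matrix markers of osteoblasts and fibroblasts 18 of 23 were called lower, with sums of 2223 to 4586 CPM in pd1245 LP and 8015 to 9472 CPM in EK LP larvae, and bglap at 0 in EK. Markers of lysosome-rich enterocytes, the protein-absorbing cells of the fish gut, were lower in 11 of 13 (1017 to 1312 CPM in pd1245 LP, 2619.98 to 3276 CPM in EK LP), and erythrocyte markers in 8 of 8 (328 to 408 CPM in pd1245 LP, 769 to 786 CPM in EK LP, with hbaa1 at 0 in pd1245). Hepatocytes had 12 lower and 1 higher of 25 and goblet cells 3 of 7 lower. Exocrine pancreas had 4 lower and 3 higher of 32 and fast muscle 6 lower and 3 higher of 20. Without pd1245 LP replicate 3, 14.5% of all genes were called lower and 12.9% higher. Matrix then had 18 of 23 lower, enterocytes 11 lower and 1 higher of 13 and erythrocytes 8 of 8 lower. Hepatocytes had 14 lower and 2 higher, and goblet cells 1 of 7 lower. Exocrine pancreas had 9 lower and 2 higher (median -0.27, against 0.02 with replicate 3), and fast muscle 9 lower and 3 higher. Their part in the differences of the ER genes was not tested.

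On HP only DERL3 was called lower in pd1245 than in EK among the 46 members (-0.34 ± 0.09, edgeR adjusted p = 0.0475), with 14.7, 15.6 and 15.5 CPM in pd1245 and 20.0, 17.9 and 20.1 CPM in EK libraries. That is 2.17% of the members, where 4.16% of all genes were called and 2.54% were called lower. The members' median was 0.04. Of the cell type markers, 8 of 23 for matrix (median -0.65) and 8 of 20 for fast muscle (median -0.50) were called lower. Enterocytes had 3 of 13 lower, erythrocytes 2 of 8, exocrine pancreas 1 of 32 and goblet cells 0 of 7. Hepatocytes had 3 lower and 1 higher of 25. Their part in the member differences was not tested. The DERL3 call was lost with RLE scaling, with no filter, with the replicate block and in a fit of only the compared groups, each of which called 0 members. It was also lost without any of the 3 EK HP or any of the 3 pd1245 HP libraries. Without pd1245 LP replicate 3 DERL3 was called lower and atf6 higher (0.25, edgeR adjusted p = 0.0432). In that fit 5.31% of all genes were called lower and 4.12% higher.

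For pd1116 against EK on LP, 4 of 46 members were called lower and 0 higher (3.86% and 2.82% of all genes, 6.68% in all). They were FKBP7 (-0.62 ± 0.14, adjusted p = 0.00888), PDIA4 (-0.77 ± 0.18, 0.0108), HSP90B1 (-0.55 ± 0.13, 0.0165) and SDF2L1 (-0.46 ± 0.12, 0.0209), by edgeR. SDF2L1 had 13.7, 9.86 and 13.4 CPM in pd1116 LP, against 16.9, 15.97 and 18.1 CPM in EK LP libraries. Each pd1116 value was below each EK value. The count was 9 with only these groups in the fit. It was 2 without EK LP replicate 2, and 1 without pd1116 LP replicate 2 or 3. For those fits the share of all genes called is not given here. Without pd1245 LP replicate 3 the count was 9, all lower, where 7.01% of all genes were called lower and 5.89% higher.

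On HP, 1 member was called higher and 1 lower in pd1116 than in EK (1.27% and 1.63% of all genes, 2.9% in all). The higher one was pdia2, a disulfide isomerase known in mammals from the pancreas, with 186, 160.1 and 150.3 CPM in pd1116 HP, against 109, 80.2 and 115 CPM in EK HP libraries (0.71 ± 0.13, edgeR adjusted p = 0.00427). The lower one was HSPA5, with 106, 107 and 106 CPM in pd1116 HP, against 153, 159.9 and 163 CPM in EK HP libraries (-0.58 ± 0.13, edgeR adjusted p = 0.0177). Both were separated without overlap. HSPA5 was no longer called without EK HP replicate 2 or 3 or without any of the 3 pd1116 HP libraries, with a log2 difference of -0.58 to -0.56 in those fits. A fit of only these groups called 4 members, and the share of all genes called in it is not given here.

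The 2 mutant alleles were also compared with each other. On LP, 8 of 46 members were called higher and 1 lower in pd1116 than in pd1245, where 20.2% of all genes were called, 9.89% higher and 10.3% lower. The higher ones included FKBP14, with 7.51, 9.22 and 7.33 CPM in pd1116 LP, against 5.13, 4.25 and 2.48 CPM in pd1245 LP libraries (0.99 ± 0.19, edgeR adjusted p = 0.00217). UGGT1 had 40.1, 33.8 and 32.1 CPM in pd1116 LP, against 25.6, 21.7 and 11.8 CPM in pd1245 LP libraries (0.83 ± 0.18, edgeR adjusted p = 0.00548). Both were separated without overlap. TXNDC5 (0.68, adjusted p = 0.00263), P4HB (0.41, 0.00829), CANX (0.45, 0.0185), pdia2 (0.45, 0.0250), PDIA5 (0.34, 0.0401) and dnajc3b (0.32, 0.0483) were the other higher members by edgeR. HSPA5 was the lower one, with 137, 90.5 and 121 CPM in pd1116 LP, against 189, 139.7 and 147 CPM in pd1245 LP libraries (-0.45 ± 0.13, edgeR adjusted p = 0.0217). The count of 9 became 0 in a fit of only these groups, 5 in that fit without pd1245 LP replicate 3, and in the fit of all groups 5 without pd1116 LP replicate 2, 15 without pd1245 LP replicate 1 and 6 without pd1245 LP replicate 3. In the last of these 5 were higher and 1 lower, where 7.29% of all genes were called higher and 5.52% lower. There CANX (edgeR adjusted p = 0.0528), pdia2 (0.0585) and dnajc3b (0.141) were no longer called. For the other fits the share of all genes called is not given here. On LP the matrix markers were called higher in pd1116 than in pd1245 in 14 of 23, with sums of 6339.8 to 7940.3 CPM in pd1116 and 2223 to 4586 CPM in pd1245, and bglap at 0 in pd1116. Enterocyte markers were higher in 8 of 13 (1410.2 to 2069 CPM in pd1116, 1017 to 1312 CPM in pd1245), erythrocyte markers in 5 of 8 and goblet markers in 4 of 7. Hepatocytes had 5 higher and 5 lower of 25, exocrine pancreas 5 higher and 5 lower of 32 and fast muscle 5 higher and 1 lower of 20. Without pd1245 LP replicate 3 the higher calls were 15 of 23 for matrix, 8 of 13 for enterocytes, 7 of 8 for erythrocytes and 2 of 7 for goblet cells. Hepatocytes then had 5 higher and 4 lower, and fast muscle 6 higher. Exocrine pancreas had 4 higher and 4 lower (median 0.22, against -0.10 with replicate 3). Their part in these member differences was not tested.

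On HP, 2 members were higher and 2 lower in pd1116 than in pd1245 (5.96% and 5.91% of all genes, 11.9% in all). The higher ones were pdia2 (0.84 ± 0.13, edgeR adjusted p = 0.000463) and FKBP7 (0.48 ± 0.13, edgeR adjusted p = 0.0217). The lower ones were atf6, with 72.5, 73.9 and 68.5 CPM in pd1116 HP, against 91.0, 100.4 and 101 CPM in pd1245 HP libraries (-0.44 ± 0.10, edgeR adjusted p = 0.00749), and HSPA5 (-0.50 ± 0.13, edgeR adjusted p = 0.0176). In the edgeR fit of all libraries with TMM scaling, filterByExpr and no replicate block, atf6 was the only 1 called among the sensors and XBP1 in the 16 comparisons. With other settings XBP1 and atf6 were called in other comparisons, some given above. XBP1 was also called in at least 1 other setting of 2 further comparisons on LP, by edgeR or DESeq2. Over those settings it was higher in pd1245 than in EK (0.09 to 0.43, smallest adjusted p = 0.0239). It was lower in pd1116 than in pd1245 (-0.41 to -0.06, smallest adjusted p = 0.0415). The count was 7 with only these groups in the fit and 2 without pd1116 HP replicate 1 or 3. For those fits the share of all genes called is not given here. Without pd1245 LP replicate 3 the count was 7, with 5 higher and 2 lower. In that fit 9.9% of all genes were called higher and 9.91% lower. The members' median was 0.03. On HP 9 of 23 matrix markers were called higher in pd1116, with 4 of 8 for erythrocytes, 2 of 13 for enterocytes and 1 of 7 for goblet cells. Exocrine pancreas had 8 higher and 1 lower of 32, fast muscle 8 higher and 1 lower of 20 and hepatocytes 6 higher and 2 lower of 25. Their part in the member differences was not tested.

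**Figure D4:**
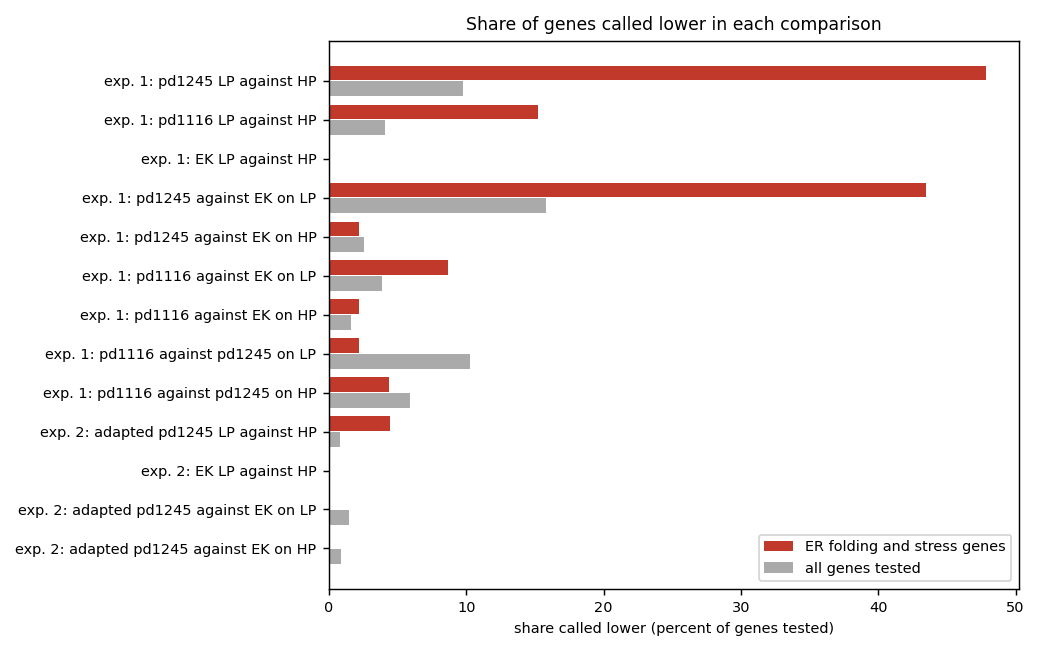
Share of the members (upper bar of each pair) and of all genes tested (lower bar) called lower by edgeR, in percent, in 13 comparisons of the 2 experiments. The members' share was 47.8% in pd1245 LP against HP, where 9.78% of all genes were called lower, and 0% in the EK comparisons of diet.

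In experiment 2 the adapted pd1245 line again had lower values of most members on LP than on HP, but few passed the test. Of 45 members 2 were called lower and 0 higher, where 1.88% of all genes were called, 0.78% lower and 1.1% higher. The median was -0.20 against 0.01 for all genes, 36 of 45 lay below 0, and 19 had an unadjusted p under 0.05. The share of all genes at that unadjusted threshold is not given here. In 16 members all 4 LP libraries were below all 3 HP libraries, as for 11.3% of all genes. All 15 chaperones lay below 0, with a median of -0.47. In EK of experiment 2, 11 of the 15 lay below 0 between diets, with a median of -0.14. Set against EK, the adapted line's chaperones had a median of 0.28 on HP (14 of 15 above 0) and -0.12 on LP (12 of 15 below 0), with 0 called on either diet.

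The called members were FKBP7 and CRELD2. FKBP7 had 25.3, 20.4, 18.6 and 18.2 CPM in adapted LP libraries, against 42.6, 33.1 and 37.3 CPM in adapted HP libraries. The groups did not overlap (-0.87 ± 0.19, edgeR adjusted p = 0.0236). CRELD2, an ER-resident protein with a disulfide isomerase motif that ER stress induces, had 18.3, 14.8, 16.04 and 11.0 CPM on LP, against 33.2, 23.1 and 24.99 CPM on HP. It was lower in every LP library (-0.85 ± 0.21, edgeR adjusted p = 0.0484). HSPA5 had 134, 111, 99.5 and 66.3 CPM on LP, against 208, 136 and 191 CPM on HP. The groups were separate by a narrow margin and the difference of -0.79 ± 0.23 was not called (edgeR adjusted p = 0.0761). PDIA4 had 62.1, 58.7, 53.7 and 45.1 CPM on LP, against 125, 79.2 and 79.1 CPM on HP, with an edgeR adjusted p of 0.0651. HSP90B1 had 181, 178, 160.4 and 141 CPM on LP, against 325, 204 and 249.6 CPM on HP, with an edgeR adjusted p of 0.196. Both had all LP values below all HP values, with log2 differences of -0.78 ± 0.22 and -0.65 ± 0.27. Over the other settings the adjusted p, by edgeR or DESeq2, was 0.0280 to 0.347 for HSPA5 and 0.0401 to 0.621 for HSP90B1. Each of these 2 genes was therefore called lower in at least 1 of those settings. EIF2AK3 lay in the other direction (0.51 ± 0.19, edgeR adjusted p = 0.145), and the differences of XBP1 (-0.20), atf6 (-0.07) and ern1 (0.38) had edgeR adjusted p of 0.495, 0.832 and 0.377.

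**Figure D5:**
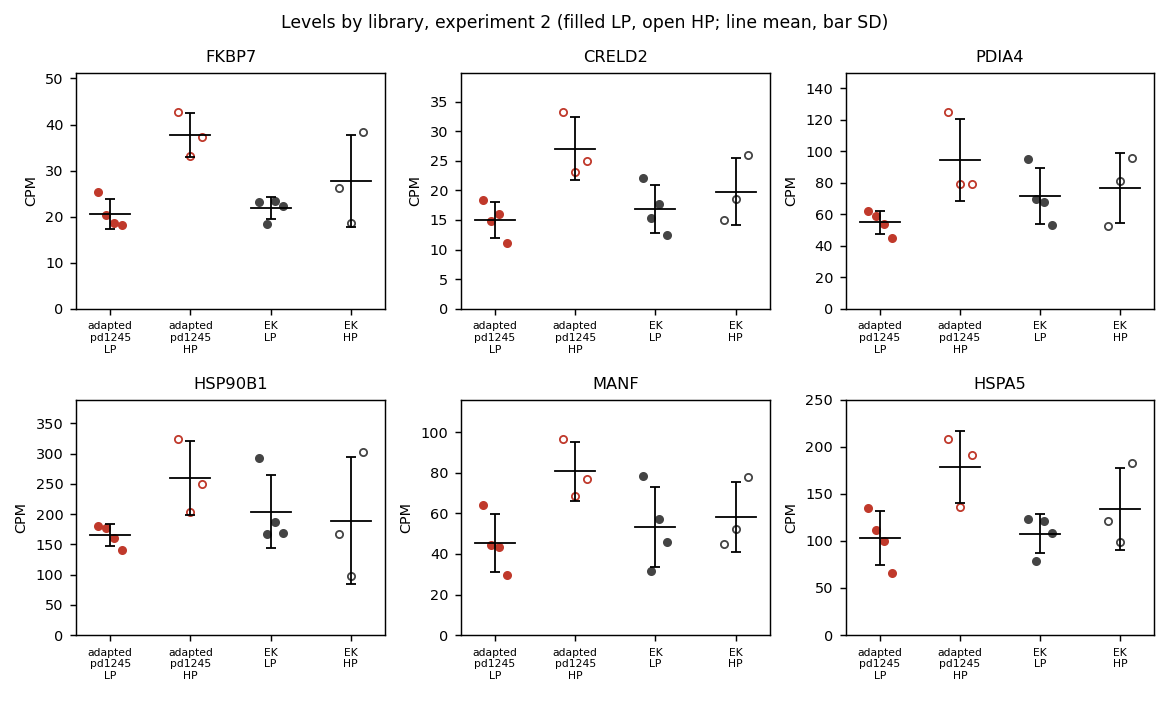
CPM of 6 members in each library of experiment 2 (filled points LP, n = 4; open points HP, n = 3; line, mean; bar, SD), adapted pd1245 left and EK right. All adapted LP values lie below all adapted HP values in the members shown, while the EK diets overlap.

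The count of 2 in the adapted line was 9 with only its libraries in the fit, 7 by DESeq2, 6 with no filter or without EK HP replicate 2, and 1 with the replicate block. It was 6 without adapted LP replicate 1, and 0 without adapted HP replicate 1 or 3 or adapted LP replicate 2, 3 or 4. For these other settings the share of all genes called is not given here. In EK of experiment 2 no member was called between diets by edgeR or DESeq2, 4 had an unadjusted p under 0.05, and 0.078% of all genes were called. There 29 of 45 lay below 0 with a median of -0.12, and HSP90B1, with 294, 167, 186 and 169 CPM in EK LP and 167, 97.7 and 303 CPM in EK HP libraries, varied more within a diet than between diets. The interaction of diet and genotype called 0 members and 0 genes by edgeR and 0 members by DESeq2, with 4 members at an unadjusted p under 0.05. The difference between the responses of the adapted line and EK was therefore not detected. Adapted pd1245 against EK gave 0 calls among the members by edgeR and DESeq2 on LP (2 at an unadjusted p under 0.05; 2.36% of all genes called) and on HP (3 at an unadjusted p under 0.05; 1.44% of all genes called). It gave 1 call on LP without EK LP replicate 2 and 1 on HP without EK HP replicate 3.

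The 22 members called lower in pd1245 of experiment 1 were followed into experiment 2, whose libraries had no part in those calls. In the adapted line 21 of 22 (95.5%) lay below 0 on LP against HP, with a median of -0.38 and 1 call. Of all 1955 genes called lower in pd1245 and tested in both experiments, 1555 (79.5%) lay below 0, and of the 23 other members 15 (65.2%) did. In EK of experiment 2 the same 22 gave 16 (72.7%) below 0, against 68.9% of the 1955 genes.

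Neighbouring steps of the secretory pathway were counted in 6 further lists in pd1245 LP against HP, where 9.78% of all genes were called lower and 9.33% higher. Of 30 tested genes of N-glycan transfer and trimming 12 were called lower and 0 higher, among them OSTC (-0.62, adjusted p = 0.00178) of the oligosaccharyltransferase, and the glucosidase genes MOGS (-0.70, 0.00228) and PRKCSH (-0.49, 0.00285), by edgeR. Collagen maturation in the ER had 6 lower and 1 higher of 21, led by the proline isomerases FKBP9 (-1.58, adjusted p = 0.000467) and FKBP10 (-0.82, 0.00413) and the collagen chaperone SERPINH1 (-0.98, 0.00564). COPII export and KDEL retrieval had 8 lower and 3 higher of 26: the retrieval receptor kdelr2a (-0.63, adjusted p = 0.00139) and the cargo receptor LMAN1 (-0.61, 0.00279) fell, and the coat subunit SEC24A rose (0.63, 0.00481). ER entry and signal cleavage had 5 lower and 2 higher of 24, with SEC11A of the signal peptidase (-0.58, adjusted p = 0.00232), SRP68 of the signal recognition particle (-0.51, 0.00238) and TRAM2 (-0.58, 0.00579). The other ER-bound transcription factors had 1 lower of 8, creb3l3a (-1.01, adjusted p = 0.0188), a factor of liver and gut. Genes of the PERK branch and the integrated stress response, which reports amino acid shortage as well, had 6 higher and 3 lower of 21, with a median of 0.27: TRIB3 (1.12, adjusted p = 0.00218) and CEBPB (1.39, 0.0166) rose and the cystine transporter slc7a11 (-0.92, 0.0124) fell. Without LP replicate 3 the calls were 7 lower of 30 for N-glycans, 5 lower of 21 for collagen maturation, 6 lower and 2 higher of 26 for COPII and KDEL, 5 lower of 24 for ER entry, 1 lower of 8 for the ER-bound factors, and 2 lower and 1 higher of 21 for the PERK branch (6.57% of all genes lower, 5.08% higher). The median of the PERK branch was then 0.04, TRIB3 was the higher one (0.77, edgeR adjusted p = 0.00485), and CEBPB was no longer called (0.69, edgeR adjusted p = 0.136).

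In pd1116, where 4.04% of all genes were called lower and 2.76% higher, the same lists gave 4 lower of 30 for N-glycans, 6 lower of 21 for collagen maturation, 4 lower and 1 higher of 26 for COPII and KDEL, 4 lower of 24 for ER entry, 1 lower of 8 for the ER-bound factors and 0 of 21 for the PERK branch. Without pd1245 LP replicate 3 (7.76% of all genes lower, 7.48% higher) they gave 5 lower for N-glycans, 10 lower for collagen maturation, 4 lower and 2 higher for COPII and KDEL, 10 lower for ER entry, 1 lower and 2 higher for the ER-bound factors and 2 higher for the PERK branch. P4HA1, the catalytic subunit of collagen prolyl hydroxylase and partner of P4HB, fell there by 1.1 (edgeR adjusted p = 0.000300). In EK of experiment 1 none of the 6 lists had a call by edgeR. In the adapted line of experiment 2, where 0.78% of all genes were called lower and 1.1% higher, only collagen maturation had calls, 2 lower of 18 tested, namely P4HA1 (-0.90, adjusted p = 0.0187) and SERPINH1 (-0.95, 0.0216).

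Markers of several cell types also differed between the diets of the mutants. In pd1245 LP against HP, where 9.78% of all genes were called lower and 9.33% higher, 14 of 23 tested markers of osteoblast and fibroblast matrix were called lower by edgeR and 0 higher, and their summed level was 2223 to 4586 CPM on LP, against 5785 to 7548 CPM on HP. None of them was at 0 in either group. Lysosome-rich enterocytes had 9 of 13 markers called lower, with sums of 1017 to 1312 CPM on LP and 1871 to 3034 CPM on HP and none at 0. Goblet cell markers had 4 of 7 lower (138 to 292 CPM on LP, 286 to 342 CPM on HP), erythrocyte markers 7 of 8 lower (328 to 408 CPM on LP, 492 to 728 CPM on HP, with hbaa1 at 0 in both) and hepatocyte markers 6 lower and 1 higher of 25. Exocrine pancreas, a tissue rich in ER, had 1 of 32 markers lower, with overlapping sums of 18852 to 34323 CPM on LP and 19539 to 24526 CPM on HP, and fast muscle had 2 of 20 higher. The highest pancreas sum on LP was that of replicate 3, and the others were 18852 and 21568 CPM. The median log2 difference of the pancreas markers was 0.14 with replicate 3 and -0.11 without it. Without LP replicate 3 the calls were 13 of 23 lower for matrix (4549 to 4586 CPM on LP), 9 of 13 lower for enterocytes, 3 of 7 lower for goblet cells, 5 of 8 lower for erythrocytes, 2 lower and 1 higher of 25 for hepatocytes, 1 of 32 lower for exocrine pancreas and 1 lower and 1 higher of 20 for fast muscle.

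In pd1116 (4.04% of all genes lower, 2.76% higher) the matrix list had 7 of 23 called lower, with sums of 6339.8 to 7940.3 CPM on LP and 10552 to 10760.5 CPM on HP and bglap at 0 on LP. Enterocytes had 5 of 13 called lower, with sums of 1410.2 to 2069 CPM on LP and 3118 to 3696 CPM on HP. Hepatocytes had 11 lower and 2 higher of 25, exocrine pancreas 6 lower of 32, erythrocytes 3 of 8 lower, goblet cells 1 of 7 lower and fast muscle 4 higher and 2 lower of 20. Without pd1245 LP replicate 3, 7.76% of all genes were called lower and 7.48% higher. Then 16 of 23 matrix, 6 of 13 enterocyte, 4 of 8 erythrocyte and 13 of 32 exocrine pancreas markers were called lower. Hepatocytes had 16 lower and 2 higher of 25, fast muscle 6 lower and 5 higher of 20 and goblet cells 1 lower and 1 higher of 7. By edgeR with all libraries in the fit, EK of experiment 1 had at most 2 calls in any of the 7 lists. Its summed matrix level was nevertheless 8015 to 9472 CPM on LP and 9837 to 12388 CPM on HP, without overlap and with bglap at 0. Without pd1245 LP replicate 3, EK had 4 of 23 matrix markers called lower (median -0.34), where 0.426% of all genes were called lower. Fast muscle then had 2 of 20 lower, enterocytes 1 of 13 lower and hepatocytes 1 lower and 1 higher of 25. In the adapted line 1 of 21 matrix markers and 1 of 6 goblet markers were called lower and 0 in the other 5 lists, with matrix sums of 2857 to 3333 CPM on LP and 3678 to 4719.5 CPM on HP and bglap at 0 on LP. The part of these cell types in the differences of the ER genes was not tested.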

How the data were processed

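Gene counts of whole zebrafish larvae from 2 experiments were the starting point. In experiment 1 the authors deposited raw counts per gene, made with FastQC 0.11.7, Trim Galore 0.6.5, STAR 2.7.3a and HTSeq 0.11.1, per the submitters' processing notes. Its rows that name no gene took 14.6 to 16.8% of a library and were left out. In experiment 2 the authors deposited expected counts from featureCounts (Subread 2.1.1), after fastp 0.24.0 and STAR 2.7.11, per the submitters' processing notes. They were partly fractional, with 78.3 to 84.8% of the values above 0 whole within 0.005, and were rounded; 92 spike-in features were left out. The genome build was GRCz11, per the same notes. The annotation release, the strand setting, the treatment of multi-mapping reads and any collapsing of molecular identifiers are not given in the sources used here. The labels do not name separate clutches or tanks, so p-values measure only the spread between samples, which may be technical.

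Each experiment was fitted on its own in R 4.3.3 with edgeR 4.0.16: 1 coefficient per group, TMM scaling, filterByExpr, the quasi-likelihood F test (2-sided) and Benjamini-Hochberg adjustment over all 22742 genes tested in experiment 1 and 16671 in experiment 2, at a threshold of 0.05. Fold changes use a prior count of 0.125, and SE was taken as that fold change divided by the root of the F statistic. CPM was computed here with edgeR from the counts and expected counts that the authors deposited, using TMM-adjusted library sizes. Symbols were matched ignoring case, and symbols are written as the gene table has them. In each of 16 comparisons, up to 8 called members with the smallest p are named, with HSPA5, HSP90B1, XBP1, atf6, ern1 and EIF2AK3, and up to 3 called genes for each of 6 pathway lists. Values of other members were chosen after they were seen. The share of all genes with an unadjusted p under 0.05 is not given here, so counts of members at that threshold cannot be read as particular to them. The members, the lists and the tests were chosen with earlier results of these data known. The fit was also run on simulated counts, and the outcome is not given here. Those counts held no library like pd1245 LP replicate 3, so that run cannot show how such a library affects the calls. No pairing by replicate number was found by the rule used: all same-numbered libraries correlated above 0.1 in 0 of 15 group pairs of experiment 1 and in 0 of 6 of experiment 2. With 3 or 4 libraries a group, this rule cannot exclude a tank or clutch shared by number. Alternatives were RLE scaling, no filter, a filter of 50 counts, a replicate block, DESeq2 1.42.0, a fit of only the groups compared, and leaving out each library. CPM columns that the authors deposited beside the expected counts, and a table of variance-stabilised values, were not used.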

Additional observations from a re-analysis of the deposited data

Results flagged for a closer look

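In experiment 2, 90 sets of 4 libraries were tested, each set being 1 member in EK LP or in adapted pd1245 LP. In 5 of the 90 sets a library lay far from the other 3, where chance gives about 1 in 20. The sets share the same libraries and are not independent. HSP90B1 was at 294 CPM in EK LP replicate 1, with 167, 169 and 186 CPM in the others of that group. The same library had 188 CPM of calr3b, where the others had 62.5, 63.3 and 73.1 CPM. HYOU1 was at 47.5 CPM in adapted pd1245 LP replicate 1, with 36.1, 36.9 and 37.1 CPM in the others. In adapted pd1245 LP replicate 3, ern1 was at 9.17 CPM, where the others had 6.02, 6.30 and 6.43 CPM, and DERL3 was at 1.64 CPM, where they had 2.143, 2.202 and 2.205 CPM.

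In experiment 1, 7 members had a diet response in pd1245 that differed from that in EK by edgeR's interaction test, where 5.7% of all genes were called. On the log2 scale the interaction was -1.32 for FKBP14, -1.31 for PDIA4, -1.19 for calr3b, -0.78 for HSP90B1, -0.75 for calr3a, -0.56 for PDIA5 and -0.52 for P4HB. Of 19 other settings, calr3b and PDIA5 were no longer called in 10, P4HB in 9, calr3a in 7 and HSP90B1 in 5. PDIA4 and FKBP14 were called in all of them.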

How the results depend on the processing

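The 138 named member values gave 1958 values over the other settings: 1812 kept their side of the threshold, 18 newly passed it and 128 no longer passed. No called value changed sign, but 54 values of 30 differences not called in either setting did, lying between -0.21 and 0.17. Counts of called members moved with the groups in the fit and with single libraries, and the cause was not tested. With only the groups compared they were 0 in place of 22 for pd1245 LP against HP, 16 in place of 7 for pd1116 LP against HP, 13 in place of 20 for pd1245 against EK on LP, 0 in place of 1 on HP, 9 in place of 4 for pd1116 against EK on LP, 4 in place of 2 on HP, 0 in place of 9 for pd1116 against pd1245 on LP, 7 in place of 4 on HP, 2 in place of 7 for the interaction of pd1245 and EK, and 9 in place of 2 for the adapted line. With pd1245 LP replicate 3 also left out, chosen after seeing the data, they were 8 for pd1245 LP against HP and 5 for pd1116 against pd1245 on LP. For most fits of only the groups compared the share of all genes called is not given here. Their counts therefore cannot be read as particular to the members. DESeq2 called 12 in the interaction of pd1245 and EK and 7 in the adapted line, where no filter gave 6, and leaving out EK HP replicate 2, chosen after seeing the data, gave 6. The single call in pd1245 against EK on HP became 0 with RLE scaling, no filter or the replicate block.

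Leaving out 1 library at a time gave 9 to 25 calls for pd1245 LP against HP, 5 to 17 for pd1116, 17 to 26 for pd1245 against EK on LP and 0 to 2 on HP, 1 to 9 for pd1116 against EK on LP and 1 to 3 on HP, 5 to 15 for pd1116 against pd1245 on LP and 2 to 7 on HP, 2 to 18 for the interaction of pd1245 and EK, 0 to 6 for the adapted line, and 0 to 1 for the adapted line against EK on each diet. EK LP against HP and the other 2 interactions stayed at 0. For most of these fits the share of all genes called is not given here. Their counts cannot be read as particular to the members. The rule used found no pairing of libraries by replicate number, but it cannot exclude such pairing. The replicate block gave 23 for pd1245 LP against HP, 7 for pd1116, 19 for pd1245 against EK on LP and 1 for the adapted line, and moved no other count by over 1.5 times except that of pd1245 against EK on HP. ERO1A (at most 3.05 CPM) and DERL3 (at most 7.39 CPM) had the lowest levels among the members tested in experiment 2, so counting error is widest for them.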
